A study of Homo sapiens with 12 samples.

Results

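Small nucleolar RNA (snoRNA) genes and the genes that host them were examined in HepG2 and Ls174 cells treated with an extract of the red seaweed Hypnea musciformis (HME). The members were the genes with the biotype snoRNA in the deposited files that had at least 50 counts when all regions and all 12 libraries were added up. The members were thus chosen by their summed counts. The rule kept 94 of 1457 snoRNA genes, among 57736 genes of all biotypes, and 455 snoRNA genes had at least 1 count. By name, 45 members were SNORD genes, 33 were SNORA genes, 7 were SCARNA genes and 9 had another name. SCARNA20 with 51 counts and SNORD1B and SNORD37 with 50 each were the lowest members, and SNORA73B, SNORA84 and a copy of SCARNA18 with 47 each were the highest genes outside. The total over all libraries chose the members, so a gene low in every group but 1 could enter through that group, and the totals are given as a description.

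HepG2 is a human liver cancer line and Ls174 a human colon cancer line. Each line had 3 control libraries from untreated cells and 3 libraries from cells exposed to HME for 24 h, at 0.7 mg/ml by the labels (the dose in the study's methods is slightly higher), and neither line carried an engineered change according to the labels. RNA was measured in 3′ libraries, which are primed on poly(A) and report the end of a transcript. The study's methods call the replicates biological, while the labels do not say whether they came from separate cultures, and p-values measure the spread between these libraries. In bulk RNA fewer cells of a kind and less RNA per cell cannot be told apart.

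Most human snoRNAs are cut out of the introns of other genes, many of which code for ribosomal proteins or translation factors or have no protein product of their own. SNORD genes encode C/D box RNAs, which guide 2′-O-methylation of ribosomal and spliceosomal RNA through fibrillarin, whereas SNORA genes encode H/ACA box RNAs, which guide pseudouridylation through dyskerin. SCARNA genes encode relatives that work in the Cajal body on spliceosomal RNA. Mature snoRNAs carry no poly(A) tail, so a 3′ library is not expected to hold them.

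The libraries held between 1790841 and 3656662 counts, and the members took between 3.26 and 5.63% of each. Liver markers summed to 13255 to 20083 CPM (counts relative to library size, scaled by TMM over all libraries) in HepG2 and 0.309 to 106 in Ls174, and colon markers to 381 to 473 in Ls174 and 69.4 to 207 in HepG2, where MUC2 and CEACAM5 were at 0. Mesenchymal markers reached 1073 CPM in HepG2 HME 2, mostly COL1A1 with 548, against at most 86.6 in HepG2 control libraries, and the part of this in the results was not tested. HepG2 control 2 and Ls174 control 1 stood apart in the intronic windows, with 212 and 479 CPM (here relative to library size without TMM). The other 10 libraries had 561 to 1086 there. In windows of last exons these controls had 38498 and 45082, against 22136 to 36237 in the other 10 libraries, with HepG2 HME 2 the highest of those. The values that move most without HepG2 control 2 or Ls174 control 1 are given beside the results.

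The counted stretch of each member was a single window of 197 bases. In 91 members that could be placed in the annotation it began at the base after the annotated 3′ end of the snoRNA, so no base of the snoRNA itself was counted there. The other 3 (SNORA31 with identifier ENSG00000199477, SNORD56 and SNORD57) had no entry in the annotation by identifier. What these windows held was sequence downstream of the snoRNA. By the main transcript of the host, 17 windows touched its last exon, 48 an internal exon and 25 touched none of its exons, a class called intronic here. Of these 25, 22 lay in an intron of the main transcript, 3 (SNORA25 in TAF1D, the snoU13 gene in NQO1 and SNORD116-19 in SNHG14) lay past or before it within the gene, and 12 touched an exon of another transcript of the same host. SNORD13, SNORA11, a SNORA70 gene and a snoU13 gene had no host on their strand.

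The place of the window went with the size of the count. Windows in last exons held 935037 of 1308401 member counts (71.5%), windows in internal exons 345255 (26.4%), windows in introns 26138 (2.00%) and members without a host 1971 (0.151%). Of the intronic counts, 16823 were those of SNORA72 alone, in RPL30, a protein of the large ribosomal subunit. Ribosomal protein genes hosted 36 members in 23 hosts with 87.7% of the counts, other protein-coding genes hosted 37 with 10.0%, and long non-coding RNA genes hosted 17 with 2.13%.

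The 5 largest members held 63.7% of the counts. Among them were SNORA45 in RPL27A with 263701, SNORA33 and SNORD100 in RPS12 with 175164 and 159544, and SNORA10 in RPS2 with 119201. All 3 of these hosts encode ribosomal proteins. The windows of 37 members overlapped a listed region of another gene, 35 of them a region of the host, so the same reads could be counted under both names. In HepG2 control 1, for example, SNORA33 had 15822 counts and RPS12 had 15820.

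Where a host held several snoRNAs, the downstream ones had more counts. Of 14 hosts with at least 2 members, which together held 34 members, the totals rose from the 5′ to the 3′ member at every step in 10. In RPL7A SNORD36B had 173 counts, SNORD36A 4521 and SNORD36C 22966. In RPL13A SNORD33 had 328, SNORD34 3939 and SNORD35A 12694. Both are ribosomal protein genes, and the order held in each of the 12 libraries. The exceptions were RPL23A, SNHG22, TPT1 and ZFAS1. SCARNA17 and SCARNA18 in SNHG22 had identical counts of 318, and in ZFAS1 SNORD12C had 274, SNORD12B 3404 and SNORD12 2333.

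**Figure D1:**
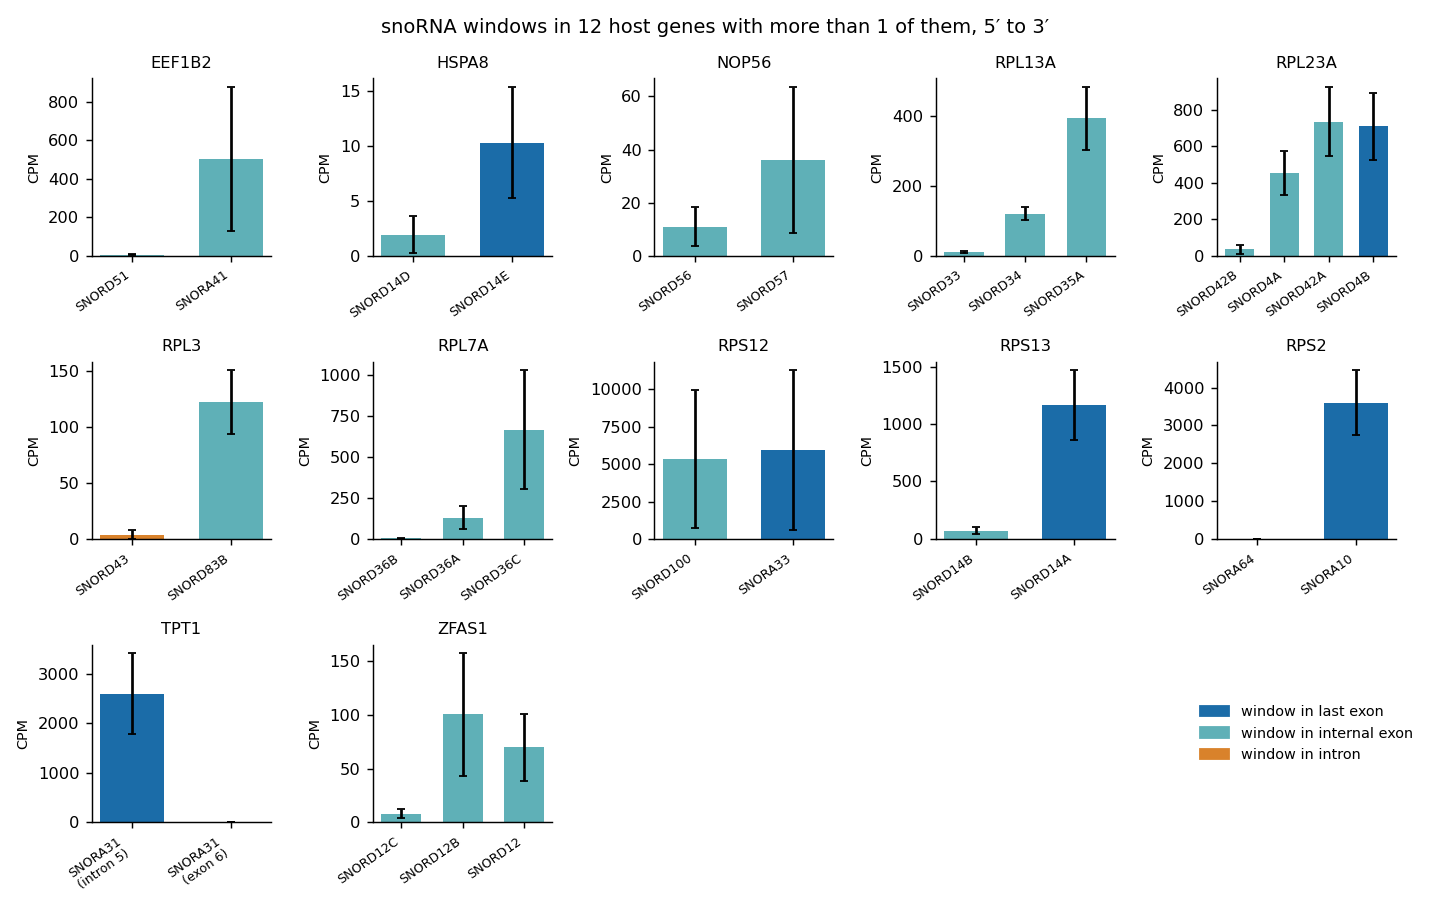
Mean CPM over the 12 libraries (bars on linear axes that start at 0 and differ in range between panels, error bars the SD over libraries) of members that share a host, for 12 hosts, drawn from 5′ to 3′ within each host and coloured by where the window lies. In RPL7A and RPL13A the bars climb towards the 3′ end, and in RPS13 and RPS2 the tallest bar is a window in the last exon.

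RPL23A, which encodes a protein of the large ribosomal subunit on the plus strand of chromosome 17, carried 4 members, and their sequences are given because they show how relatives in a single host differ in their counts. The sequences are from the GRCh37 genome, 5′ to 3′, with the C box TGATGA in capitals where it stands within the first 20 bases and the D box CTGA where it stands within the last 15.
SNORD42B: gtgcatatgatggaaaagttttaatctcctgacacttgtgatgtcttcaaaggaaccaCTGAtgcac
SNORD4A: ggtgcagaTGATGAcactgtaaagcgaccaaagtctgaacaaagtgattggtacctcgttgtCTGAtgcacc
SNORD42A: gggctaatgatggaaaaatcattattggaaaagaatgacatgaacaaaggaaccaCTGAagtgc
SNORD4B: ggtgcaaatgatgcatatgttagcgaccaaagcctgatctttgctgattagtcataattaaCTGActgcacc
They lie at chr17:27047568-27047634, chr17:27049600-27049671, chr17:27050447-27050510 and chr17:27050700-27050771. SNORD4A and SNORD4B were identical at 73.3% of aligned positions and SNORD42A and SNORD42B at 65.3%. Their totals were 1170 for SNORD42B, 14534 for SNORD4A, 23307 for SNORD42A and 22452 for SNORD4B. The totals of the relatives SNORD42B and SNORD42A therefore differed more than those of SNORD42A and its neighbour SNORD4B.

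Across the members with a place in the annotation, 27 of 43 SNORD genes (62.8%) held the exact C box and 42 (97.7%) the D box in these zones, against 59.5% and 78.6% of all 383 SNORD genes in the files. Of 32 SNORA members 27 (84.4%) ended in ACA and 3 more bases, against 60.9% of 396. These are matches of letters and do not mark a working box.

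The first question was which members differed between HME treated and control HepG2 cells. In HepG2, SNORD13, SNORD118 and SNORD45A had higher counts after HME, with log2 fold changes from 3.37 to 5.47. Of these, SNORD45A reached the minimum total for members only through the HepG2 HME libraries. SNORD13 encodes a C/D RNA that takes part in the acetylation of 18S ribosomal RNA, SNORD118 encodes U8, which is needed for maturation of the large subunit RNAs, and SNORD45A is an intronic methylation guide. Of the 94 members, 78 passed the filter on low counts. At an adjusted p under 0.05 edgeR called 3 higher and 0 lower, where 2.77% of all 11343 tested genes were called higher and 0.538% lower.

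SNORD13 had 32, 7 and 4 counts in HepG2 control libraries 1 to 3 and 347, 814 and 406 in HME libraries 1 to 3. The groups did not overlap. Mean CPM went from 4.83 ± 3.50 to 222 ± 76.8 (SD, n = 3), which fitted as 5.47 on the log2 scale (SE 0.60, adjusted p = 0.0021 by edgeR quasi-likelihood with Benjamini-Hochberg adjustment). It has no host and its window began right after the annotated RNA.

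SNORD118 had 3, 5 and 5 counts in control and 38, 60 and 34 in HME libraries of HepG2, again without overlap. Its mean CPM was 1.97 ± 1.15 and 18.8 ± 3.34 (SD, n = 3), with a log2 fold change of 3.37 (SE 0.53, edgeR quasi-likelihood adjusted p = 0.0104). Left-out libraries gave log2 fold changes from 2.88 to 3.86, and the call was lost without HepG2 HME 3 (adjusted p = 0.0597).

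SNORD45A had 3, 0 and 1 counts in control and 18, 31 and 9 in HME libraries. Mean CPM was 0.401 ± 0.401 against 7.78 ± 2.82 (SD, n = 3) and the log2 fold change 3.90 (SE 0.70, edgeR quasi-likelihood adjusted p = 0.0173). Every control library was at or under 3 counts, the floor used here, so the size of the fold rests on few reads. SNORD45A became a member only through its counts in the HepG2 HME libraries, which by itself favours a value above 0. Its host RABGGTB, a subunit of the geranylgeranyl transferase for Rab proteins, was also called higher, from 47.7 ± 5.18 to 130 ± 43.3 CPM with a log2 fold change of 1.46 (adjusted p = 0.048, edgeR quasi-likelihood). SNORD45A lost its call without HepG2 control 3 (edgeR adjusted p = 0.0727) and without HepG2 HME 1, 2 or 3 (0.0630, 0.0862 and 0.0597). RABGGTB lost its call without any library but HepG2 control 2, with adjusted p up to 0.201.

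The snoRNA and its counted window are shown for SNORD45A because its host was itself higher. The window lay in an intron of the main transcript of RABGGTB but touched an exon of another transcript. SNORD45A lies on the plus strand at chr1:76253574-76253657 (GRCh37) and its window at chr1:76253658-76253854. Capitals mark the D box in the snoRNA, and in the window they would mark a run of at least 6 A, of which it has none.
SNORD45A: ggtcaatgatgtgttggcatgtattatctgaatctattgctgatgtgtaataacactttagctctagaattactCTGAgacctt
SNORD45A window: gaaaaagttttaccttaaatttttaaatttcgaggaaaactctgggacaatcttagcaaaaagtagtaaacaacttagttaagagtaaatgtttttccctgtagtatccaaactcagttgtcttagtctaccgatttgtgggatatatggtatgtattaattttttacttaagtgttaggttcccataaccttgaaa
The longest run of A in this window was 5 bases.

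**Figure D2:**
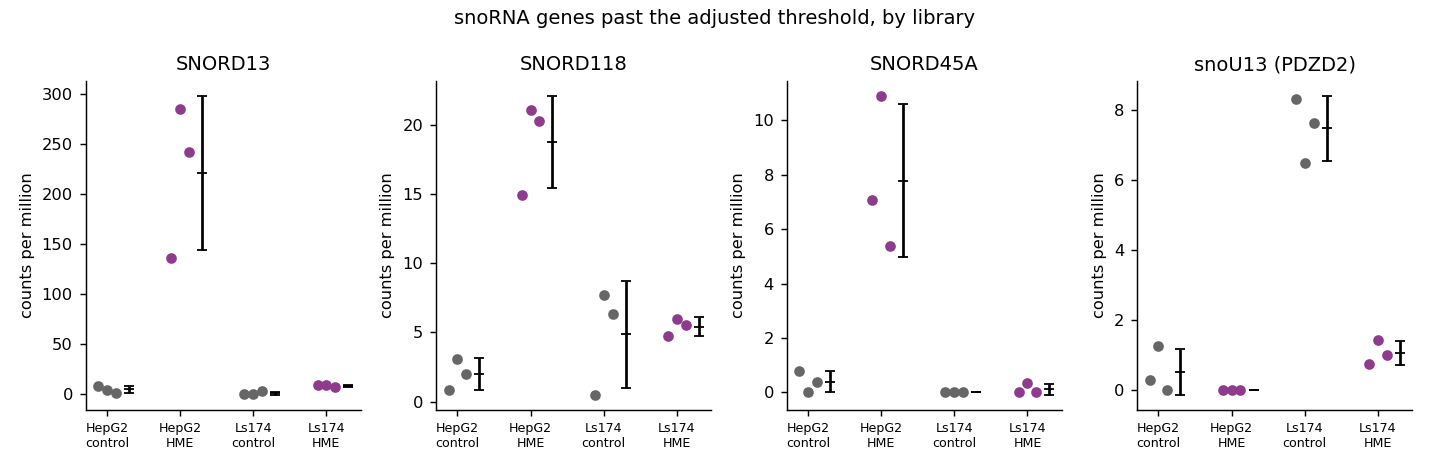
CPM in each library (points, on linear axes that differ in range between panels) with the mean ± SD for the 4 members called by adjusted p in either line, SNORD13, SNORD118, SNORD45A and the snoU13 gene in PDZD2. For SNORD13, SNORD118 and SNORD45A all 3 HepG2 HME libraries lie above all 3 HepG2 control libraries.

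The window of SNORD118 lay wholly inside the listed region of its host TMEM107, a gene of the ciliary transition zone. TMEM107 had 18, 8 and 16 counts in control and 46, 64 and 38 in HME libraries of HepG2, with a log2 fold change of 1.97 (edgeR quasi-likelihood adjusted p = 0.0184), a call lost without any library but HepG2 control 2 (0.0562 to 0.0955). With the SNORD118 counts taken away, TMEM107 kept 15, 3 and 11 counts in control and 8, 4 and 4 in HME libraries. That remainder was 3.43 ± 1.38 and 2.31 ± 0.873 CPM (SD, n = 3, two-sided exact permutation p = 0.3), so the higher count of TMEM107 lay in the window it shares with SNORD118.

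**Figure D3:**
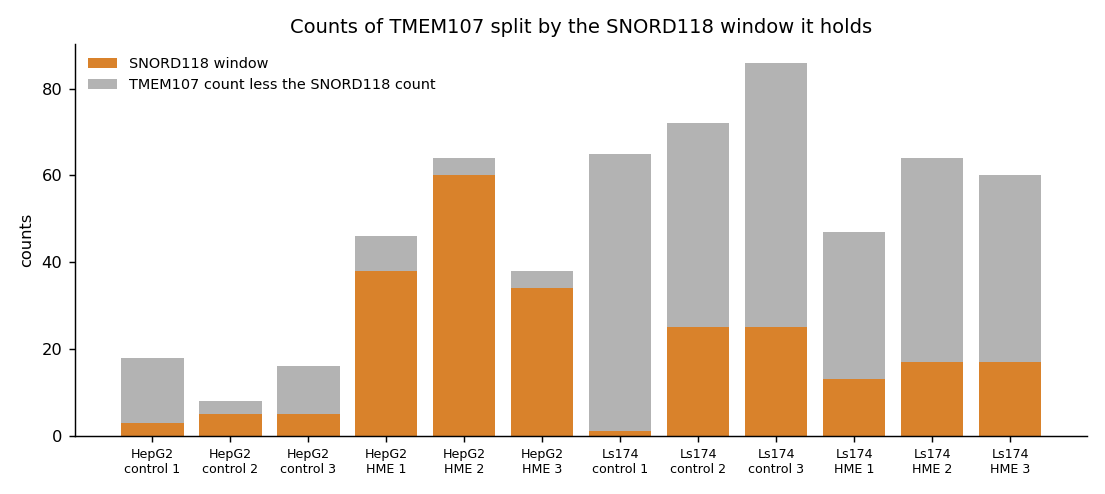
Counts of TMEM107 in each of the 12 libraries, split into those of the SNORD118 window (orange) and the rest (grey). In the HepG2 HME libraries the window holds 38, 60 and 34 of 46, 64 and 38 counts, while in Ls174 most counts of every library lie outside it.

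At the thresholds the study used (p under 0.05 without adjustment, with a change beyond 0.58 on the log2 scale), 22 of the 78 tested members were higher in HepG2 HME cells and 2 were lower. Of all tested genes 11.3% were higher and 10.9% lower by the same rule. The log2 fold change was above 0 in 71 of 78 members, with a median of 0.69 against -0.04 over all genes. Members that reached 50 counts through the HepG2 HME libraries lean to values above 0 by that choice. Without HepG2 control 2 the median was 0.60 and 28 members were higher and 1 lower, with 20 of the 22 among them (SNORA42 and a SNORA70 gene no longer passed), and 12 of 82 were higher by adjusted p against 5.67% of all genes. The 9 added were SCARNA17, SCARNA18, SCARNA20, SNORA11E, SNORA13, SNORA63, the SNORA79 gene in CCNB1IP1, SNORD43 and the snoU13 gene in DENND4A. Of the 12, SCARNA20, SNORA11E, SNORA63, SNORD43, SNORD45A and the snoU13 gene in DENND4A reached 50 counts only through the HepG2 HME libraries. SCARNA17 and SCARNA18 hold the same counts. The 12 can therefore not be set plainly against the share of all genes.

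The fold changes in HepG2 differed by the place of the window, given here as a description. The minimum of 50 counts bears on this, as median totals were 22452 in last exons, 695.5 in internal exons and 123 in introns. Small members could enter through the HepG2 HME libraries, where SNORD116-19 had 13, 18 and 14 of its 55 counts. Such entry by itself favours values above 0. The median log2 fold change was 0.32 over 17 members with windows in last exons, 0.54 over 41 in internal exons and 1.60 over 18 in introns. At the study's thresholds 3, 7 and 10 of these were higher, and both tested members without a host. Without HepG2 control 2 the medians were 0.40, 0.45 and 1.45. Over the 15 tested members within an intron of the main transcript alone, the median was 1.79 and 9 were higher. By name the medians were 0.46 for 40 SNORD, 0.96 for 27 SNORA and 1.80 for 7 SCARNA members, of which 7, 10 and 5 were higher. SCARNA17 and SCARNA18, both intronic and both higher, hold the same counts and enter the numbers by place and by name as 2 members. The summed intronic windows took 520 ± 289 CPM without TMM in control and 968 ± 107 in HME libraries of HepG2 (SD, n = 3), and the groups did not overlap (two-sided exact permutation p = 0.1, the smallest that 3 against 3 allows). Without HepG2 control 2 the control libraries were at 787 and 561, below the lowest HME library at 877. SNORA72 alone held 16823 of the 26138 intronic counts over all libraries, so these sums rest largely on 1 member. It had 1788, 132 and 723 counts in control and 1260, 1435 and 1044 in HME libraries of HepG2.

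**Figure D4:**
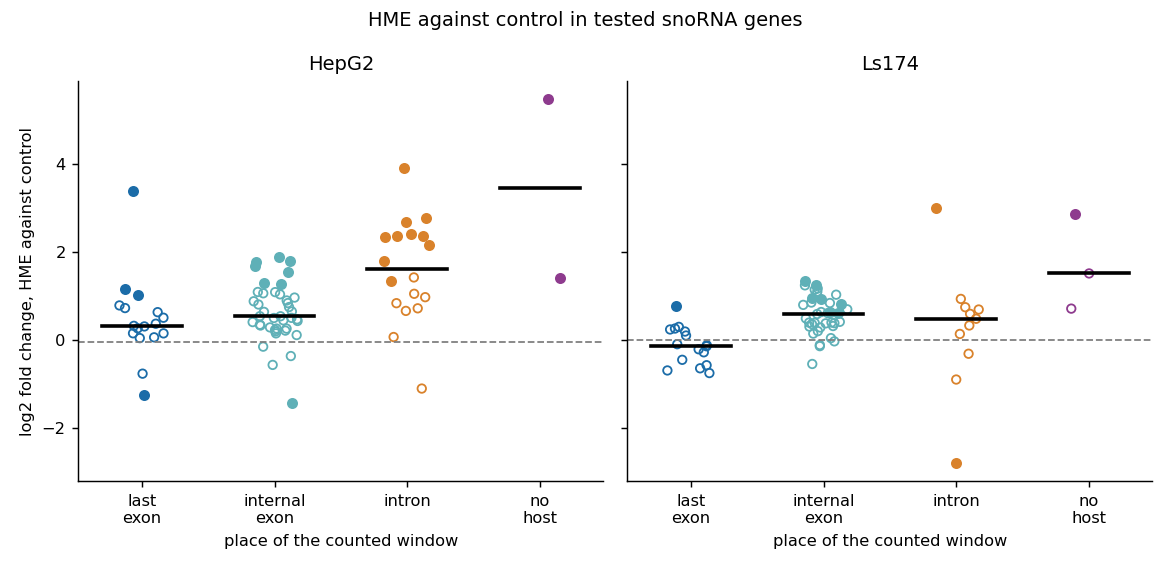
Log2 fold change of HME against control for each tested member, by where its window lies, in HepG2 (left) and Ls174 (right). Filled circles pass the study's thresholds, black bars are medians and the dashed line is the median of all tested genes; in HepG2 the bar of intronic windows stands at 1.60 and that of last exons at 0.32.

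Of the 7 SCARNA members, 5 were higher in HepG2 at the study's thresholds and none by adjusted p. SCARNA17 and SCARNA18, whose windows overlap and whose counts were identical in each library, are 1 measurement that enters these numbers as 2 members. Both had 17, 23 and 5 counts in control and 66, 113 and 59 in HME libraries (log2 fold change 2.36, edgeR quasi-likelihood adjusted p = 0.0679). SCARNA22, in an intron of NSD2, a histone methyltransferase gene, with a window that reaches into the next exon, had 26, 11 and 6 counts against 71, 31 and 29 (1.80, edgeR adjusted p = 0.0917), while the log2 fold change of NSD2 itself was 0.06. SCARNA20 in USP32 and SCARNA8 in HAUS6 had log2 fold changes of 2.35 and 1.69, and their hosts of 0.81 and 1.02. SCARNA13 in SNHG10 had 58, 37 and 50 counts in control and 104, 81 and 43 in HME libraries and did not pass (0.72, edgeR adjusted p = 0.253). On the CPM scale the HME libraries of HepG2 lay above the control libraries in these 6, and in SCARNA12 the groups overlapped. The share of all tested genes that separated in this way is not given here. SCARNA20 and SCARNA8 reached the minimum of 50 counts only through the HepG2 HME libraries.

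The SNORA79 name covers 2 genes on the minus strand of chromosome 14, in CCNB1IP1 and in GTF2A1, and both are printed because both were higher in HepG2 at the study's thresholds while neither host was. They lie at chr14:20791338-20791485 and chr14:81669039-81669178 (GRCh37). Capitals mark the ACA before the last 3 bases.
SNORA79 in CCNB1IP1: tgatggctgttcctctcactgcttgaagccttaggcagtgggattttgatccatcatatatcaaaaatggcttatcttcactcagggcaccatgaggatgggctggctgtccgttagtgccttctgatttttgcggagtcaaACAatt
SNORA79 in GTF2A1: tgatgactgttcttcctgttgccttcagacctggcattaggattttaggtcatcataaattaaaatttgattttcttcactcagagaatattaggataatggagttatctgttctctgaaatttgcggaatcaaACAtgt
The snoRNAs were identical at 69.5% of aligned positions and their windows at 50.2%. The gene in CCNB1IP1 had 276, 31 and 127 counts in control and 275, 545 and 320 in HME libraries, with means of 48.0 ± 27.4 and 164 ± 48.0 CPM (SD, n = 3). Its log2 fold change was 1.79 (edgeR quasi-likelihood adjusted p = 0.0682) and that of CCNB1IP1 was -0.32. The gene in GTF2A1, a subunit of the general factor TFIIA, had 14, 3 and 7 against 54, 31 and 11 counts, a log2 fold change of 2.16 (edgeR adjusted p = 0.0625), and the host -0.31.

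Members in long non-coding hosts had fold changes on the same side as the host in some cases and on the other in others. SNORA13 in EPB41L4A-AS1 had 23, 2 and 17 counts in control and 46, 54 and 29 in HME libraries of HepG2 (log2 fold change 1.88, edgeR adjusted p = 0.0662), and its host had 33.2 and 100 CPM (1.61, edgeR adjusted p = 0.0709). SNORD12B in ZFAS1 had log2 fold changes of 1.77 for the member and 1.06 for the host. SNORD116-19, of the imprinted SNORD116 cluster, had 7, 1 and 2 against 13, 18 and 14 counts (2.41, edgeR adjusted p = 0.0541), whereas its host SNHG14 had 28.4 and 13.3 CPM and a log2 fold change of -1.09. SNORD60 was lower at the study's thresholds, with 217, 331 and 243 against 168, 129 and 69 counts (-1.25), as was its host SNHG19 (-1.27), but on the CPM scale its groups overlapped and it no longer passed without HepG2 control 2. SNORA12 in CWF19L1 was the other member that was lower, with 15, 10 and 26 against 7, 5 and 5 counts (-1.44) and a host at -0.44.

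The largest members passed no test by adjusted p in HepG2. Their counts came to between 83.8% (SNORA45 and RPL27A) and 103% (SNORD72 and RPL37) of the host's own count. In the pairs named next, except for SNORD14A and SNORD42A, the window overlapped a listed region of the host. The same reads could stand under both names there, and near equal log2 fold changes follow from such counting. The window of SNORD100 in RPS12 (log2 fold change 0.28) overlapped no listed region of the host. The log2 fold changes of SNORA45 and RPL27A were -0.77 and -0.62, of SNORA33 and RPS12 both 0.15, and of SNORA10 and RPS2 both 0.72. SNORD72 in RPL37 passed the study's thresholds at 1.03, with 1.01 for the host. SNORA73 in RPS7 was at 0.78 for both, SNORD14A and RPS13 at 0.63 and 0.65, SNORD42A and RPL23A at 0.33 and 0.34, and MIR3607, which the files list as a snoRNA, and COX7C at 0.26 and 0.27. SNORA45 had 15767, 25886 and 9286 counts in control and 11122, 15565 and 7708 in HME libraries, so the groups overlapped. Without HepG2 control 2 the log2 fold changes of SNORA45 and RPL27A were 0.35 and 0.36, on the other side of 0, and those of SNORA33 and RPS12 were 1.21 both. Without it MIR3607 and COX7C were at -0.09 and -0.08, SNORA73 and RPS7 at 0.33 both, and SNORD42A and RPL23A at 0.71 and 0.64.

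The ratio of member to host within a library, which needs no scaling, was formed for 85 pairs with 0.5 added to each count. In HepG2 it was higher in all HME than in all control libraries for 17 pairs and lower for 3. With 3 against 3 libraries and no difference, a pair separates in 1 direction or the other with a probability of 0.1. Some of the 85 pairs would therefore do so by chance. Small intronic members could also enter the set through the HepG2 HME libraries. Of 21 intronic pairs 9 were higher and none lower, with a median difference of 1.67 on the log2 scale, and of the 18 within an intron of the main transcript 8 were higher, with a median of 1.77. Of 47 pairs in internal exons 6 were higher and 1 lower (median 0.42), and of 17 in last exons 2 and 2 (median 0.00). For windows in last exons the member held a median of 87.9% of the host's count, for internal exons 5.65% and for introns 11.8%. SNORD116-19 differed by 3.57, SNORA11E by 2.64, SNORD45A by 2.38, SNORA79 in CCNB1IP1 by 2.15, SCARNA22 by 1.73 and SNORA57 by 1.37, each with a two-sided exact permutation p of 0.1, the smallest possible. SNORD43 in RPL3 differed by 4.17, but 2 of its control libraries had 0 counts. SNORD116-19, SNORA11E, SNORD45A and SNORD43 reached the minimum total for members only through the HepG2 HME libraries. Such entry by itself favours a higher ratio in HME libraries. SNORA79 in CCNB1IP1, SCARNA22 and SNORA57 reached the minimum without those libraries. The snoRNAs and windows of SNORA11E in MAGED4B and SNORA11D in MAGED4 are identical (100% over 197 bases of window), so their reads cannot be assigned to either gene or host.

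**Figure D5:**
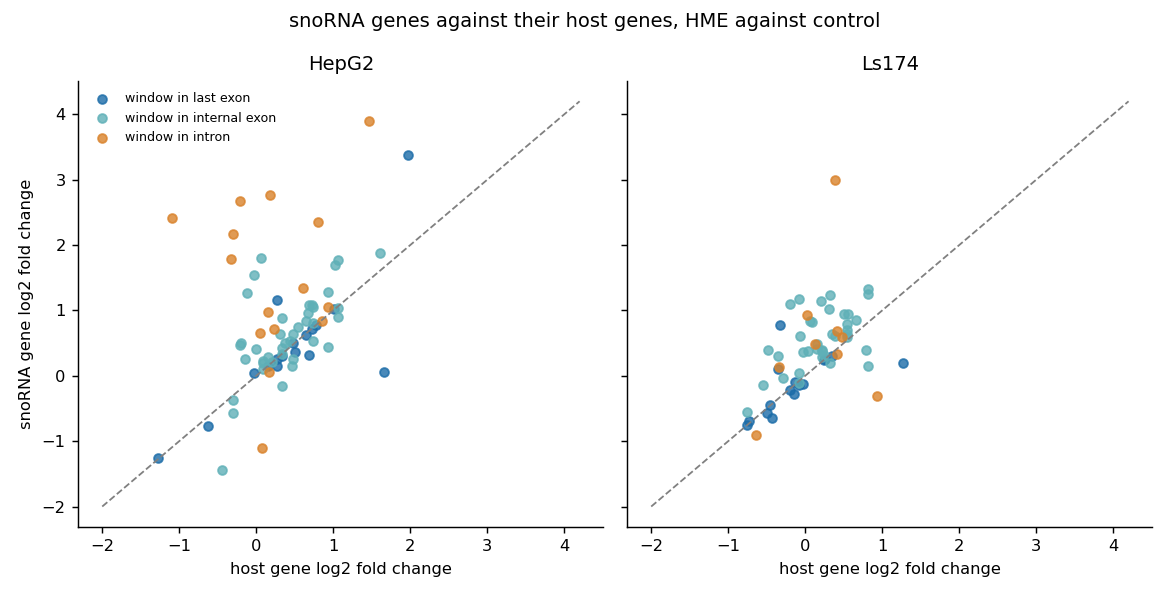
Log2 fold change of each tested member against that of its host in HepG2 and Ls174, with the dashed line where both are equal, coloured by where the window lies. Most windows in last exons sit near the line (SNORD118, 3.37 against 1.97, does not), while intronic windows such as the SNORA79 gene in CCNB1IP1 (1.79 against -0.32) stand above it in HepG2.

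The same question was asked in Ls174. There 67 members were tested, none was higher by adjusted p (1 with DESeq2, and 10 at p under 0.05 without adjustment) and 1, a snoU13 gene in an intron of PDZD2, was lower, where 0.318% of 11319 genes were called higher and 0.866% lower. At the study's thresholds 10 members were higher and 1 lower, against 4.11% and 7.85% of all genes. The median log2 fold change was 0.39, with 50 of 67 above 0, against -0.00 over all genes. By place the medians were -0.13 for 16 members in last exons, 0.59 for 37 in internal exons and 0.48 for 11 in introns. Without Ls174 control 1 they were -0.01, 0.44 and 0.33, and 8 members were higher by adjusted p (SNORA11, SNORA21, SNORA26, SNORA42, SNORD13, SNORD36A, SNORD36C and SNORD43) against 3.06% of all genes.

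The snoU13 gene in PDZD2, a gene for a PDZ domain protein, had 17, 21 and 30 counts in control and 2, 4 and 3 in HME libraries of Ls174. The groups did not overlap, and means were 7.47 ± 0.925 and 1.04 ± 0.349 CPM (SD, n = 3). Its log2 fold change was -2.80 (SE 0.52, edgeR quasi-likelihood adjusted p = 0.0468). The call held without Ls174 control 1 (edgeR adjusted p = 0.0038) but was lost without any other library (0.164 to 0.314). This snoU13 gene reached the minimum total for members only through the Ls174 control libraries. Such entry by itself favours a value below 0. PDZD2 was too low to be tested, with 0, 8 and 11 counts in control and 1, 3 and 0 in HME libraries. The counted window is printed because it opens with a long run of A, a stretch on which an oligo(dT) primer can anneal; capitals mark runs of at least 6 A. It lies on the plus strand at chr5:31824790-31824986 (GRCh37).
snoU13 (PDZD2) window: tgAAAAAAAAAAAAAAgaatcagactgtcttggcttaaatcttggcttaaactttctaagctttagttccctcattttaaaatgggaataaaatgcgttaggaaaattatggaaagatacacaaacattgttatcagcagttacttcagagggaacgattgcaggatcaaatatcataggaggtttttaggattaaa
The run was 14 bases long. The window of SNORA79 in CCNB1IP1, at chr14:20791141-20791337 on the minus strand, holds a shorter run of 7.
SNORA79 (CCNB1IP1) window: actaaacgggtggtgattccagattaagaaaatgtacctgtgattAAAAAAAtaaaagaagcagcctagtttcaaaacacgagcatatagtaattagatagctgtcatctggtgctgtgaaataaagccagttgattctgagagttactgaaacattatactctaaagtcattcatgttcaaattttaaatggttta
Such runs were in 9 of 25 intronic windows (36%), 5 of 48 in internal exons (10.4%), 3 of 17 in last exons (17.6%) and 2 of 4 without a host. They were in 696 (48%) of the 1450 windows of snoRNA genes that could be placed. Whether reads began at these runs was not tested.

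SNORD36C and SNORD36A, neighbours in RPL7A, were both higher in Ls174 at the study's thresholds. SNORD36C had 510, 1757 and 1834 counts in control and 2022, 3789 and 3369 in HME libraries, with means of 419 ± 152 and 1057 ± 306 CPM (SD, n = 3) and a log2 fold change of 1.33 (SE 0.33, edgeR adjusted p = 0.123). The log2 fold change was 1.25 for SNORD36A and 0.81 for RPL7A. SNORD13 had 0, 0 and 11 counts against 24, 26 and 21 (2.87, SE 0.95, edgeR adjusted p = 0.24), with 2.32 to 7.53 when a library was left out. SNORA42, in KHDC4, had 0, 0 and 5 against 11, 11 and 16 (2.99) and SNORA26 had 0, 0 and 6 against 7, 19 and 30 and was not tested. SNORA33 and RPS12, whose regions overlap, were at -0.75 both and SNORA45 and RPL27A at -0.57 and -0.49. Without Ls174 control 1 the first pair was at 0.43 both, on the other side of 0, and the second at -0.14 and -0.11. The ratio of member to host was higher in all HME libraries for 10 of 85 pairs and lower for 4. The probability of such a separation without a difference is 0.1 per pair here too.

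Whether the lines differed in their response was tested over all 12 libraries. No member of 82 tested was called by adjusted p in edgeR (1 with DESeq2, and 4 at p under 0.05 without adjustment), where 0.613% of 13040 genes were called for a more positive change in HepG2 and 0.0307% for a more positive one in Ls174. At the study's thresholds 7.42% of all genes passed with a more positive change in HepG2 and 5.75% with a more positive one in Ls174. By the same rule SNORD118 (interaction 3.26 log2, SE 0.91, edgeR adjusted p = 0.136), SNORD13 (2.61, edgeR adjusted p = 0.322), SNORA57 (1.38) and SNORD99 (0.95) passed, all with the more positive change in HepG2. SNORD118 in Ls174 had 1, 25 and 25 counts in control and 13, 17 and 17 in HME libraries, a log2 fold change of 0.10. Without Ls174 control 1 the interaction of SNORD118 was 3.75 with an adjusted p of 0.0127. Without Ls174 control 3, the control library with 11 counts, the interaction of SNORD13 turned below 0. SNORD45A, SNORD116-19 and SNORA11E were at 0 or 1 count in every Ls174 library and gave no usable difference.

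In the controls, 3 of 63 tested members were higher in HepG2 and 2 in Ls174 by adjusted p, where 14.2% and 9.33% of 11907 genes were. SNORA79 in CCNB1IP1 was higher in HepG2 by 3.56 on the log2 scale (edgeR quasi-likelihood adjusted p = 0.0175), SCARNA13 by 3.10 (0.0159) and SNORD57 in NOP56, a core protein of C/D particles, by 2.49 (0.0218), with 1.85 for NOP56 itself. Higher in Ls174 were SNORD99 (HepG2 against Ls174 -1.09, edgeR adjusted p = 0.0431), whose host SNHG12 had -1.02, and the snoU13 gene in PDZD2 (-4.03, edgeR adjusted p = 0.00815). HepG2 controls had 1, 2 and 0 counts of the last. That gene reached the minimum total for members only through the Ls174 controls, which by itself favours a higher value in Ls174.

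The proteins that make and bind snoRNAs were counted from lists of named genes. None of the 8 core proteins of the particles, 11 assembly factors or 9 factors of the Cajal body and of trimming passed the adjusted p in either line. At the study's thresholds NHP2, an H/ACA core protein (log2 fold change -0.89), and PIH1D1, an assembly factor (-1.27), were lower in HepG2, and PAPD5, a poly(A) polymerase that tails snoRNA precursors for trimming (1.18, edgeR adjusted p = 0.0599), and SMN1 (0.94) were higher. No gene of these lists passed in Ls174. Of 21 tested genes on a list of hosts known for snoRNAs, mostly non-coding but with TAF1D, protein-coding in the annotation, among them, 8 were higher in HepG2 at these thresholds (GAS5, SNHG7, SNHG12, SNHG17, SNHG20, ZFAS1, EPB41L4A-AS1 and TAF1D) and 2 lower (SNHG14 and SNHG19), where 11.3% and 10.9% of all genes were, and in Ls174, where 4.11% of all genes were higher, GAS5 alone of 19 was higher (0.80). The hosts of the members had a median log2 fold change of 0.30 over 65 tested in HepG2 and 0.08 over 61 in Ls174.

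Small nuclear RNA genes, the class most like the members, were set beside them. Of 40 with at least 50 counts, 31 were tested in HepG2 and 20 were higher by adjusted p, where 2.77% of all tested genes were. Their median log2 fold change was 2.95. In Ls174 only 7 were tested and 0 were called by adjusted p, with a median of 1.36. These genes were also chosen by totals over all libraries, so a gene could enter through 1 group. Their sums were 350 ± 40.8 CPM without TMM in control and 1466 ± 443 in HME libraries of HepG2, and 125 ± 43.5 and 206 ± 40.8 in Ls174 (SD, n = 3, two-sided exact permutation p = 0.1 and 0.2). The share of all counts in the snoRNA members was 3.95 ± 1.17% and 4.39 ± 1.15% in HepG2 (two-sided exact permutation p = 0.5) and 4.25 ± 1.16% and 3.65 ± 0.0839% in Ls174 (p = 0.7), and the groups overlapped. The 100 genes with the largest counts, the largest members among them, were then left out of both the members and the total. The share of the remaining members was 1.16 ± 0.335% in control and 1.61 ± 0.0381% in HME libraries of HepG2. In Ls174 it was 1.33 ± 0.186% and 1.61 ± 0.122% (SD, n = 3). With those genes left out the groups overlapped in neither line (two-sided exact permutation p = 0.1 in each, the smallest possible).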

How the data were processed

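RNA of HepG2 and Ls174 cells was measured in 12 libraries, 3 per line and treatment. The authors prepared QuantSeq 3′ libraries, sequenced them on an Ion Proton instrument, aligned them to hg19 with HISAT2 and counted reads with metaseqR2; the submitters' processing notes also name Trimmomatic and Bowtie2. The deposited files hold whole-number counts per 3′ region, not normalized. How reads with several alignments, spliced reads and strand were handled is not given in the sources used here, so a read could be counted in several regions. Among 168 pairs of overlapping regions on opposite strands the median ratio of the lower to the higher count was 0.0697.

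Regions were added up per gene. The main test was edgeR 4.0.16 in R 4.3.3 (TMM, filterByExpr by group, quasi-likelihood F test), fitted to the 6 libraries of each line without covariates, to all 12 for the interaction and to the 6 controls, with Benjamini-Hochberg adjustment over all tested genes and calls at an adjusted p under 0.05. CPM values use TMM factors over all 12 libraries, and 3 counts in a library equal 0.763 to 1.86 CPM. Tests are two-sided. Hosts were genes of GENCODE 44 mapped to GRCh37 that hold the snoRNA on its strand, and sequences were read from that genome with pysam 0.24.0; tables and figures used Python 3.11.15, pandas 2.3.3, numpy 2.4.6 and matplotlib 3.10.9.

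The members, gene lists and tests were chosen with earlier results of these data known. Genes were named if called by adjusted p (in the interaction the lowest p), if among the 5 largest of a name group, if host to these, if next to the minimum of 50 counts, or if in the gene lists; other members were named after their values were seen. The alternatives were DESeq2 1.42.0, library-size and upper-quartile scaling, looser and stricter filters, a replicate block, 1 fit of all libraries, unshared windows, other minimums, another fold limit and pseudocount, and leaving out each library. The fits were tested on simulated counts. The named results of 1 host gene and its members are not reported here.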

Additional observations from a re-analysis of the deposited data

Results flagged for a closer look

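The change in the count listed under TMEM107, the host of SNORD118, differed between the lines in a test of the difference itself. The interaction of line and treatment was 2.30 on the log2 scale (SE 0.44, adjusted p = 0.0276, edgeR quasi-likelihood over 12 libraries), with the more positive change in HepG2. Its counts were 18, 8 and 16 in control and 46, 64 and 38 in HME libraries of HepG2, and 65, 72 and 86 against 47, 64 and 60 in Ls174. Without the counts of the SNORD118 window they were 15, 3 and 11 against 8, 4 and 4 in HepG2 and 64, 47 and 61 against 34, 47 and 43 in Ls174. The log2 ratio of mean CPM of this remainder was -0.57 in HepG2 and -0.51 in Ls174, with overlapping groups in both lines. The difference between the lines was thus seen only with the shared window counted. The interaction of the remainder was not tested. For the full count of TMEM107, some left-out libraries took the edgeR adjusted p of the interaction to between 0.0533 and 0.112. These were HepG2 control 1, any HepG2 HME library, Ls174 control 2 or any Ls174 HME library. Groups of 3 libraries were not searched for single stray values.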

How the results depend on the processing

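Few reads limit the smaller members: a library at 3 counts is at its floor, and counting intervals cover counting error only. In HepG2 the members higher by adjusted p numbered 3, against 13 with DESeq2, 6 with library-size scaling, 17 with every gene of at least 1 count, 7 in 1 fit of all 12 libraries and 0 with at least 10 counts in every library (1 to 12 with a library left out). Lower members numbered 0, and 1 with at least 1 count. At the study's thresholds the higher members numbered 22, against 39 and 6 with the looser and stricter filters (17 to 28), and the lower ones 2, against 4 and 1, and 1 in the fit of all libraries (0 to 3). The median log2 fold change of 0.69 was 0.51 with library-size scaling, 0.49 with the stricter filter and 0.93 over unshared windows (0.60 to 1.04). Pairs whose ratio did not overlap numbered 19 to 25 higher and 3 to 6 lower with a library left out. Smaller groups separate more easily, so these numbers cannot be set directly against the 17 and 3 of all libraries.

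In Ls174 higher members by adjusted p numbered 0, against 1 with DESeq2 and 7 with the looser filter (0 to 8), and lower ones 1, against 0 with upper-quartile scaling, the stricter filter and the fit of all libraries (0 to 1). At the study's thresholds higher members numbered 10, against 4 with library-size scaling, 24 with the looser filter and 4 with a log2 limit of 1 (2 to 13), and lower ones 1, against 2, 3, 0 with the stricter filter and 2 in the fit of all libraries (1 to 2). The median ranged from 0.27 to 0.75 with a library left out. Ratio pairs ranged from 12 to 25 higher and 4 to 11 lower with a library left out, where the smaller groups again separate more easily. Pairs without a shared region gave 2 lower in place of 4. The interaction had 0 members by adjusted p, 1 with DESeq2 and 2 with the looser filter (0 to 1), and 4 at the study's thresholds, 10 with the looser filter (2 to 9). Control differences were 3 higher in HepG2, 6 with DESeq2 and 7 with the looser filter (1 to 6), and 2 higher in Ls174 (0 to 2). The Ls174 share difference of -0.608 percentage points became 0.280 without the 100 largest genes, which also took the largest members out of the share. The cause of these shifts was not tested.

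The replicate numbers did not pair the libraries (correlations of deviations from -0.166 to 0.0885). With the replicate block, 5 members were higher by adjusted p in HepG2, 0 were lower there at the study's thresholds, the HepG2 median was 0.93, and by adjusted p 0 were lower in Ls174 and 0 were higher in Ls174 than in HepG2 controls. Of the values of single members and hosts, 2057 kept direction and side, 149 stayed outside the threshold but changed direction, 27 newly passed and 69 no longer passed, and minimums of 25 and 100 counts gave 137 and 71 members.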
